A study of Sus scrofa with 6 samples.

Results

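Among the conserved microRNAs (miRNAs) listed for 6 small RNA libraries of pig oocytes, a set had 0 reads in every library. The members of this set were chosen by their measured values: a listed name qualified when its deposited value was 0 in every library. Names numbered above miR-3613, given to pig miRNAs described late, were left out. The word conserved stands for this number limit only and was not measured. The rule gave 65 names, 22.0% of the 296 conserved names listed, and the other 231 had at least 1 read. The tables list 326 names in all. Because the zeros chose the members, their zeros are a description and were not tested. What can be measured is how low a level each 0 allows, what the other arm or the neighbours of a silent name showed, and what the silent sequences share. "Silent" means 0 recovered reads here, and says nothing about a level under the limit.

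The oocytes were denuded, that is, stripped of their cumulus cells, and came from abattoir ovaries of prepubertal gilts (Sus scrofa). LO oocytes were drawn from large follicles (3 to 6 mm; 20-gauge needle, 10 mL syringe) and SO oocytes from small follicles (under 2 mm; 23-gauge needle, 5 mL syringe), so follicle size and the tools differ together. Each group had 3 libraries, LO1 to LO3 and SO1 to SO3, described in the series text as biological replicates. The number of oocytes or gilts per library is not given in the sources used. In such bulk libraries, fewer cells of a type and less RNA per cell cannot be told apart.

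A miRNA is cut from a hairpin precursor as a duplex with a 5p and a 3p arm. One strand is usually loaded into an Argonaute protein and kept, while the other, the minor arm, is mostly degraded. The loaded strand finds messenger RNAs mainly through its seed, bases 2 to 8, so miRNAs with the same seed share many targets. Neighbouring miRNA genes are often transcribed as 1 cluster. The largest mammalian cluster lies in the imprinted DLK1-DIO3 region, is expressed from the maternal chromosome, and is best known from brain, placenta and embryo. In mouse oocytes, miRNA activity is known to be weak, although miRNAs are present.

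The deposited sequences that carry the results follow, 5′ to 3′ in DNA letters, with the seed in capitals. The first set holds the 6 lowest-numbered silent names of the DLK1-DIO3 cluster. Their seeds differ from each other and from the seed of every name with reads.
miR-127: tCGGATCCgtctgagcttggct
miR-136: aCTCCATTtgttttgatgatgga
miR-299: aTGGTTTAccgtcccacatac
miR-323: gCACATTAcacggtcgacctct
miR-369: aATAATACatggttgatcttt
miR-370: gCCTGCTGgggtggaacctggt

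The second set pairs the 6 silent arms whose other arm had the most reads with that arm. It shows that the silent and the sequenced strand of 1 hairpin carry different seeds, and that miR-24-1-5p and miR-24-2-5p, from separate hairpins, share 1 seed.
miR-146a-3p: cCTGTGAAgtttagttcttcag
miR-146a-5p: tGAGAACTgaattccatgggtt
miR-30c-1-3p: cTGGGAGAgggttgtttact
miR-30c-5p: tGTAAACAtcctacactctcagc
miR-24-1-5p: gTGCCTACtgagctgaaacacagt
miR-24-2-5p: gTGCCTACtgagctgatatcagt
miR-24-3p: tGGCTCAGttcagcaggaacag
miR-140-5p: aGTGGTTTtaccctatggtag
miR-140-3p: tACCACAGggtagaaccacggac
miR-30b-3p: cTGGGAGGtggatgtttactt
miR-30b-5p: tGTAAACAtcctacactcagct

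The third set places 4 silent names above their nearest listed relative with reads, to show how few bases separate a name at 0 from a name that was sequenced. The last pair, miR-301 and miR-130a, belongs to 1 family. It is shown only for the single base that differs in the seed as listed, since the rest of the listed sequences is unlike. That base was not checked against another source.
miR-18b: tAAGGTGCatctagtgcagttag
miR-18a: tAAGGTGCatctagtgcagata
miR-215: aTGACCTAtgaattgacagac
miR-192: cTGACCTAtgaattgacagcc
miR-374b-3p: cTTATCAGgttgtattatcatt
miR-374a-3p: cTTATCAGgttgtattgtaatt
miR-133b: tTTGGTCCccttcaaccagctat
miR-133a-3p: tTGGTCCCcttcaaccagctg
miR-301: cAGTCCAAtagtattgtcaaagc
miR-130a: cAGTGCAAtgttaaaagggcat

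The limit of a 0 was set by depth and was loosest in LO. The limit is 3 reads, in units of reads per 1000000 of the total behind the deposited scaling (RPM). It was 5.21 RPM in LO1, 6.50 RPM in LO2 and 2.11 RPM in LO3. It was 1.57 RPM in SO1, 1.56 RPM in SO2 and 1.37 RPM in SO3. All 3 LO limits thus lay above all 3 SO limits, as the library totals of 461505 to 1424130 reads in LO and 1915218 to 2187987 in SO imply. With libraries summed, a 0 allowed 1.22 RPM in LO, 0.498 RPM in SO and 0.354 RPM over all 6. The listed miRNAs took 218890 of the 8483591 reads, and against them the 6-library limit is 0.00137%. The limit also holds for the 65 names summed, since together they had 0 reads. It does not cover the sequence of miR-490, which had 2 reads under the name miR-490-3p. miR-205, an epithelial miRNA and the most abundant name here, had 9799 RPM over the 6 libraries, at least 27709-fold above the 6-library limit. These limits cover counting error only, and reads were not separated into molecules.

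**Figure D1:**
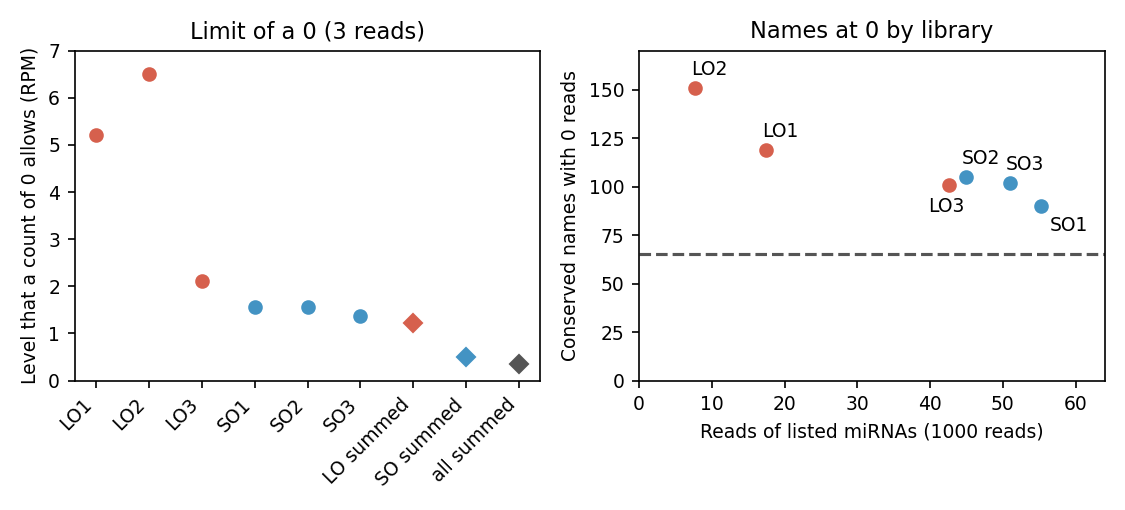
Left, the level in RPM that a count of 0 allows (3 reads) in each library (circles) and in summed libraries (diamonds), LO in red, SO in blue. Right, the number of conserved names at 0 in each library against its reads of listed miRNAs, in units of 1000 reads; the dashed line marks the 65 names at 0 in all 6. LO1 and LO2 have the fewest listed reads and the most names at 0.

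Zero in a single library was far less selective than zero in all of them. LO2 had 151 conserved names at 0 and SO1 had 90, the highest and the lowest of the 6 libraries. Of the 231 names with reads, 135 had a 6-library level under the LO2 limit and 71 had one under that of SO3. The edge of the rule was thin. Just outside it, 10 names had 1 read in all: miR-193a-3p, miR-196b, miR-217, miR-224, miR-339-3p, miR-383, miR-429, miR-615, miR-676-5p and miR-885-3p. That read lay in SO1 for 4 of them, in LO2 and LO3 for 2 each, and in SO2 and SO3 for 1 each. A further 24 names had 2 reads and 4 had 3 reads, so 38 names lay between the rule and the limit of a 0. At the other end, 26 names had 1000 reads or more.

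**Figure D2:**
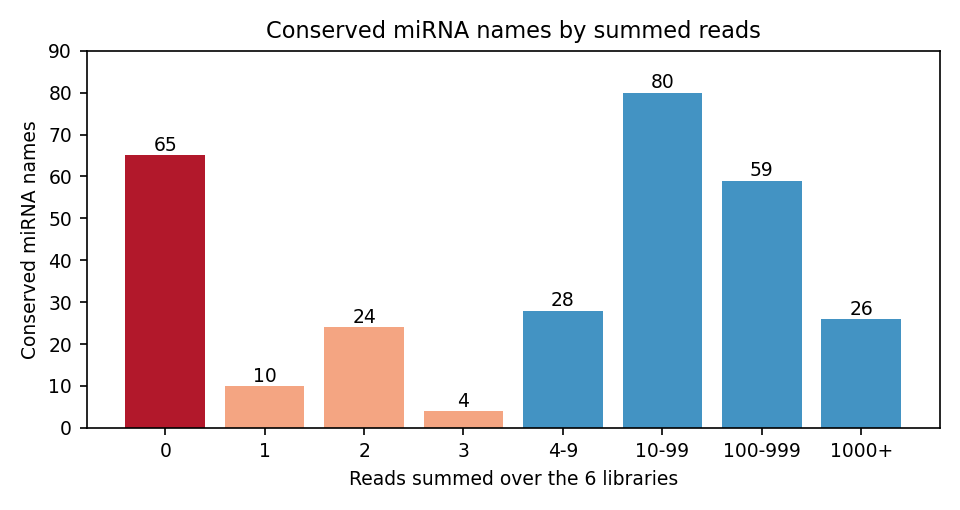
Number of conserved names (vertical axis) by reads summed over the 6 libraries (horizontal axis, classes of unequal width). The 65 silent names are red, the 38 names with 1 to 3 reads are orange and names with more reads are blue.

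The DLK1-DIO3 cluster was the list with the highest share of silent names among the lists with more than 1 listed name. Of its 20 listed names 19 were silent, 95%, beside 22.0% of all conserved names and 46 of the 276 conserved names outside the list, 16.7%. These are shares of a list chosen with the zeros known, and they were not tested. The silent names were miR-127, miR-136, miR-299, miR-323, miR-369, miR-370, miR-376a-3p, miR-376a-5p, miR-376b, miR-376c, miR-381, miR-382, miR-411, miR-432-3p, miR-487b, miR-493-3p, miR-493-5p, miR-494 and miR-758. The remaining name, miR-432-5p, had 1 read in LO1, 1 read in SO3 and 0 in the other 4 libraries. Since the 19 names had no read among them, their summed level was also under 0.354 RPM. Both arms of miR-376a and of miR-493 were listed and both were at 0, the 2 such pairs among the 68 pairs of listed arms. For 14 of the 19 the name gives no arm, so the 0 covers the 1 deposited sequence, and the opposite arm was not analysed here.

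In the RefSeq gene table of assembly Sscrofa11.1, used for neighbours only, miR-127, miR-136 and miR-432 lie within the span of RTL1 and within 10 kb of each other. RTL1 is a retrotransposon-derived gene expressed from the paternal chromosome, and these miRNAs are known to be made from its opposite strand and to cut its messenger RNA. miR-493 lies within 50 kb of them. The 19 sequences were mostly unlike each other. miR-376b and miR-376c differed at 1 base over their first 18, miR-376a-5p differed from miR-376c at 3 and from miR-376b at 4, and miR-411 differed from miR-758 at 4 after a shift of 1 base. Of the 19, 5 began with T (26.3%), beside 24.6% of all silent names. The list of other imprinted regions held only 3 names, and none of them was silent. miR-335, from the MEST locus, had 1027 reads, with 53, 28 and 207 in LO1 to LO3 and 300, 228 and 211 in SO1 to SO3. Its 6-library level was 121 RPM, at least 342-fold above the limit that the DLK1-DIO3 names share. miR-296-3p had 25 reads and miR-296-5p, the other arm of this GNAS-region miRNA, had 8.

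**Figure D3:**
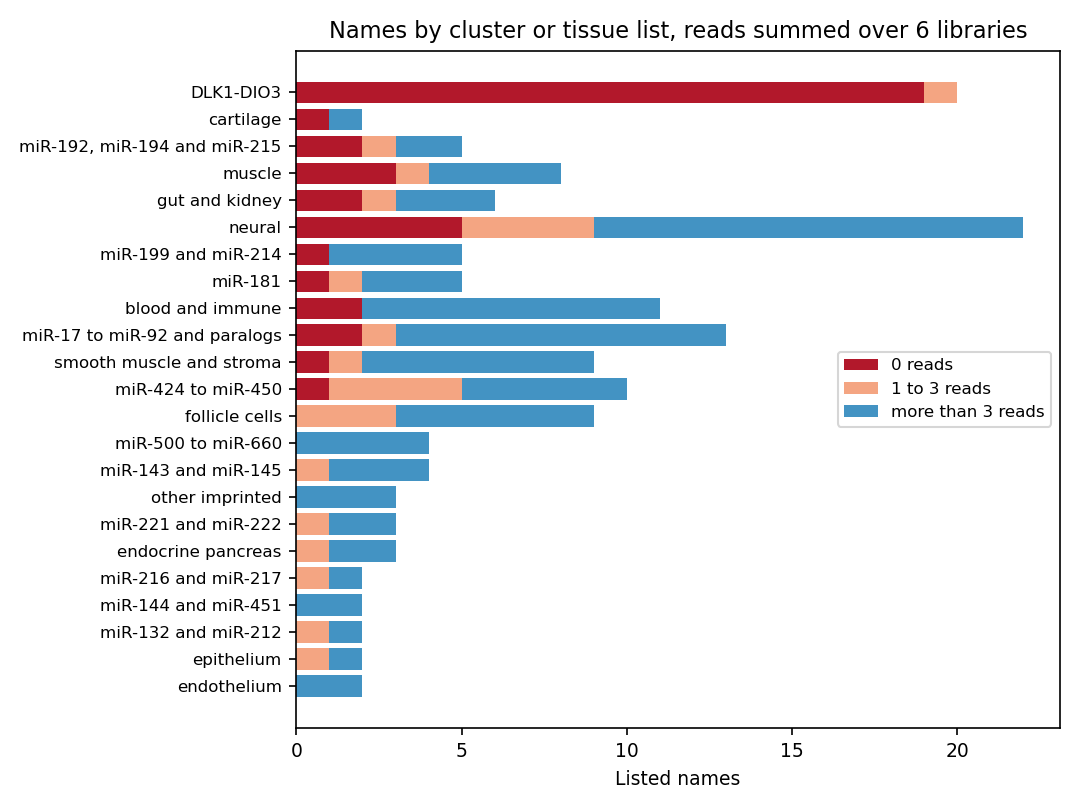
Listed names per cluster or tissue list with at least 2 listed names (horizontal bars), by reads summed over the 6 libraries: 0 (red), 1 to 3 (orange) and more (blue). Lists are ordered by their share of silent names, and some names stand in several lists. DLK1-DIO3 has 19 of 20 names at 0.

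The largest group of silent names, 26 of 65, were arms whose partner from the same hairpin had reads. Counting miR-432-3p of the DLK1-DIO3 cluster there were 27 such arms, 16 of them 3p and 11 of them 5p. Their partners had 1 to 1697 reads, with a median of 24, so the limit differs widely between them. For 6 of the 27 the partner itself had 3 reads or fewer, and the 0 then holds no information on the balance of the arms.

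miR-146a-3p was the arm with the tightest limit. Its partner miR-146a-5p, which restrains NF-kB signalling in immune cells, had 146, 128 and 235 RPM in LO1 to LO3 and 238, 159 and 210 RPM in SO1 to SO3. LO averaged 169 ± 57.1 RPM and SO 202 ± 39.6 RPM (SD, n = 3 each), and the ranges overlap. The 0 of miR-146a-3p against 1697 partner reads allows at most 0.177% of the partner's level, so the 5p arm was at least 566-fold higher.

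The hairpins of miR-30 and miR-24 gave 4 more of the 6 tightest limits. miR-30c-5p, of a family tied to differentiation and cell survival, had 66.0, 39.0 and 77.9 RPM in the LO libraries in order, and 79.9, 46.4 and 35.2 RPM in the SO libraries. miR-30c-1-3p was under 0.617% of it, and miR-30c-5p was at least 162-fold higher. The 5p strand is made by more than 1 hairpin, and the other 3p name, miR-30c-3p, had 2 reads. miR-30b-5p had 111 reads, averaging 13.0 ± 5.66 RPM across LO libraries and 12.7 ± 5.50 RPM across SO libraries (SD, n = 3 each). It lay at least 37.0-fold above the limit of miR-30b-3p. miR-24-3p, made with miR-23 and miR-27 from both of its loci, had 109, 32.5 and 86.4 RPM in LO1 to LO3 and 48.6, 56.3 and 29.3 RPM in SO1 to SO3. Against its 466 reads, miR-24-1-5p and miR-24-2-5p were each under 0.644%, at least 155-fold lower. LO2 was the lowest LO library for all 3 of these partner arms, and the LO and SO ranges overlap for each.

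miR-140 is the cartilage miRNA of the WWP2 locus, and in oocytes the strand sequenced was its 3p arm. miR-140-3p had 93.8, 13.0 and 44.9 RPM in LO1 to LO3 and 25.6, 26.1 and 22.4 RPM in SO1 to SO3. LO1 was the highest and LO2 the lowest, on either side of the 3 SO values. miR-140-5p, at 0 against 272 reads, was under 1.10% of the 3p arm.

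The other silent arms had weaker limits. miR-1839-3p and miR-22-5p, whose partners had 48 reads each, were under 6.25% of them, so the partners were at least 16.0-fold higher. The partners of miR-218-3p, miR-450b-3p, miR-155-3p, miR-92b-5p, miR-10a-3p, miR-331-5p, miR-133a-5p, miR-2320-3p and miR-671-3p had 43, 37, 32, 29, 28, 24, 23, 23 and 21 reads in that order. miR-374b-3p had a partner with 19 reads, miR-421-5p one with 10, miR-1296-3p one with 6 and miR-345-5p one with 4. miR-421-5p could make up to 30.0% of its partner's level, which shows how little a 0 says at that depth. The partners of miR-181d-3p, miR-194b-3p, miR-196b-3p and miR-490-5p had 2 reads each and that of miR-885-5p had 1. Among these hairpins are immune (miR-155), HOX-cluster (miR-10a, miR-196b) and muscle (miR-133a) miRNAs. The partner reads are those of 1 name each. The sequence of miR-218-5p is also listed as miR-218, with 17 reads, and that of miR-196b-5p as miR-196b, with 1.

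Among pairs of listed arms, a 0 on the lower arm was not the usual state where the higher arm was well sequenced. Of the 85 conserved names with 100 reads or more, 55 give no arm and stand in no pair, so their hairpins are not covered. Of the 68 pairs of listed arms, 39 had reads on both, 27 on 1 and 2 on neither. miR-30c-5p and miR-24-3p each stand in more than 1 pair, so the pairs are not all separate hairpins. Among the 29 pairs whose higher arm had 100 reads or more, 23 had reads on both arms. In those 23 the lower arm reached 0.0970% to 72.3% of the higher, with a median of 3.57%. All 6 silent arms of such pairs were limited to under that median. The choice of pairs with 100 reads or more already forces this, so nothing about these arms is concluded from it. The limit of miR-146a-3p lay above 2 of the 23 measured shares. These were miR-676-5p, with 1 read against 1031, and miR-148a-5p, with 19 reads against 13654 or 0.139%.

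**Figure D4:**
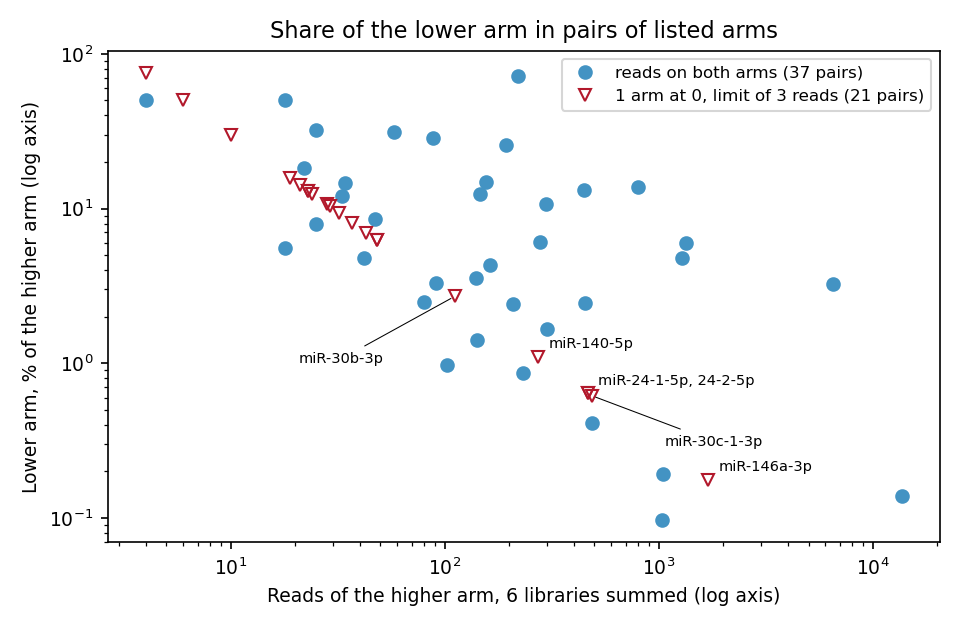
Lower arm as a percentage of the higher arm against the reads of the higher arm over 6 libraries, both on log axes, for pairs whose higher arm has more than 3 reads. Blue circles are pairs with reads on both arms, and red triangles are pairs with 1 arm at 0, drawn at the limit of 3 reads. The 6 named silent arms have limits from 0.177% to 2.70%.

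Apart from the clusters and arms, 7 silent names belonged to a tissue list: miR-133b and miR-208b (muscle), miR-153, miR-219 and miR-326 (neural), miR-214 (stroma) and miR-215 (gut and kidney). None of these 7 names gives an arm, so here too each 0 covers the 1 deposited sequence and not the opposite arm. No tissue list was silent as a whole. The muscle list had 3 of 8 names at 0, 37.5% beside 22.0% of all conserved names: miR-133a-5p, miR-133b and miR-208b. The cardiac and slow-muscle names of the list were split: miR-208b, within the span of the myosin gene MYH7, had 0 reads, and miR-499-5p had 141. miR-1 had 32 reads, miR-133a-3p 23, miR-206 4 and miR-499-3p 2. The 141 reads of miR-499-5p lie at least 47-fold above the limit that miR-208b shares with all silent names.

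The neural list had 5 of 22 names at 0, 22.7% beside 22.0% of all conserved names. These were miR-153 and miR-326, both neuronal, miR-219, and the arms miR-218-3p and miR-885-5p. Which arm of its hairpin the listed miR-219 sequence is was not determined here. Neural names with many reads were miR-338 with 570 and miR-138 with 257, while miR-124a, the defining miRNA of neurons, had 2. The stroma list had only miR-214 at 0 of 9 names (11.1%), beside miR-143-3p with 231 reads, miR-199a-3p with 162 and miR-199b-3p with 156. In the gut and kidney list miR-215 and miR-194b-3p were at 0 of 6 names (33.3%), while miR-204 had 43 reads, miR-194a 29 and miR-192 19. The immune list had 2 of 11 at 0 (18.2%), both of them the arms of miR-146a and miR-155 described above.

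The follicle-cell and endothelial lists held no silent name, 0 of 9 and 0 of 2 beside 22.0% of all conserved names, and with so few names that share was not tested. The 9 follicle-cell names had 5843 reads in sum, with 1992 for miR-21, 1817 for miR-31, 1276 for miR-202-5p, 683 for miR-320, 61 for miR-202-3p and 10 for miR-132. The other 3 lay within the limit of a 0, miR-212 with 2 reads and miR-224 and miR-383 with 1 each. The 2 endothelial names, both arms of miR-126, had 58 and 18 reads. The only listed liver name, miR-122, had 109. No name of the miR-302 cluster or of the early embryo list was listed, so their state was not analysed here. Whether reads of other cells take part in the zeros or in the detected names was not tested.

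The 13 names outside these groups were miR-18b, miR-301, miR-325, miR-484, miR-490, miR-504, miR-551a, miR-582, miR-652, miR-1224, miR-1249, miR-1271 and miR-3613. None of these 13 names gives an arm, so here too a 0 says nothing about the opposite arm. miR-18b belongs to a paralog of the miR-17 to miR-92 cluster, an oncogenic cluster that promotes proliferation. Of its RefSeq neighbours within 10 kb, miR-106a had 5 reads, miR-20b 3 and miR-363 4. miR-19b with 181 reads and miR-92a with 1376 lie there too, but these sequences are also made by the main cluster. The list of this cluster and its paralogs had 2 of 13 names at 0, miR-18b and miR-92b-5p, or 15.4%, under the 22.0% of all conserved names.

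Several others sit within the span of a protein-coding gene in the RefSeq table: miR-490 in CHRM2, a muscarinic receptor gene, miR-504 in FGF13, miR-582 in PDE4D, a phosphodiesterase gene, miR-551a in MEGF6, miR-652 in TMEM164, miR-1249 in KIAA0930 and miR-1271 in ARL10. In all, 25 of the 65 silent names lay within such a span, among the 45 whose locus the table places. The count includes the names within RTL1, which are known to be made from its opposite strand. Names with reads were not counted in this way, so nothing particular to the silent names is read from it. Strand and exons were not used for these loci, and transcripts of the spanning genes were not measured in these libraries. miR-652 was the longest silent sequence, with 26 bases. miR-484 had a GC content of 80.0% and miR-3613 one of 20.0%, the extremes of the silent names. miR-3613 holds a run of 10 identical bases, while the longest run in any conserved name with reads was 8.

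Of the 16 silent names with a listed neighbour within 10 kb in the RefSeq table, 14 had a neighbour with reads. Since 78.0% of all conserved names had reads and a silent name can have several neighbours, nothing particular to the silent names is read from that count. For miR-127 and miR-136 the only such neighbour was miR-432-5p, with 2 reads. One neighbour with more reads is that of miR-214, in the span of DNM3 and known to be transcribed together with miR-199a. miR-199a-3p had 22.6, 26.0 and 21.8 RPM in LO1 to LO3 and 30.3, 13.0 and 10.5 RPM in SO1 to SO3, and miR-199a-5p had 7 reads, while miR-214 had none. The miR-199a-3p sequence is also made by a second locus, so its reads are not all from beside miR-214. miR-133b lies beside miR-206, with 4 reads, and miR-215 beside miR-194b-5p, with 2, where little can be told. miR-30b-3p lies beside miR-30d with 1994 reads, miR-30c-1-3p beside miR-30e-5p with 1337, miR-24-2-5p beside miR-27b-3p with 1040, and miR-450b-3p beside miR-542-3p with 47. miR-181d-3p lies beside miR-181c, which had 19 reads.

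A few silent names were near copies of a sequenced miRNA, for which the assignment of reads matters. miR-490 is listed with the same sequence as miR-490-3p, and that sequence had 1 read in LO1 and 1 in SO2, both under the name miR-490-3p. The 0 of miR-490 is therefore a 0 of the name and not of the sequence. With miR-490, 5 silent names lay within 2 mismatches of a name with reads over the first 20 bases. miR-18b differs from miR-18a there by A20T, counted from the 5′ end with the base of the name with reads first. miR-18a had 2, 1 and 7 reads in LO and 8, 6 and 3 in SO. miR-215 differs from miR-192 by C1A and C20A, and miR-192 had 1, 1 and 6 reads in LO and 3, 3 and 5 in SO. miR-374b-3p and miR-30c-1-3p each have 2 mismatches, to miR-374a-3p with 50 reads and to miR-30c-3p with 2. These relatives had reads in all 6 libraries except miR-30c-3p and miR-490-3p.

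Allowing a shift of up to 2 bases over the first 18 raised the count to 7. It added miR-133b, which matches miR-133a-3p (23 reads) at all 18 bases after a shift of 1, and miR-450b-3p, 1 mismatch from miR-450c-3p (2 reads). The shift moves the seed, so miR-133b and miR-133a-3p do not share bases 2 to 8 as listed. miR-301, of the family of miR-130a, differs from it within the seed by G5C, from miR-130a to miR-301. miR-130a had 6, 1 and 9 reads in LO and 4, 9 and 7 in SO. How the authors assigned reads that match more than 1 name is not stated in the labels.

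The seeds of the silent names were rarely covered by a sequenced miRNA. Only 5 of the 65, 7.69%, had bases 2 to 8 in common with a name with reads: miR-18b, miR-30c-1-3p, miR-215, miR-374b-3p and miR-490. The share was 23.7% of the 38 names with 1 to 3 reads, 39.0% of all 231 names with reads and 54.1% of the 85 names with 100 reads or more, each compared with the other names with reads. No silent DLK1-DIO3 name was among the 5. The relatives of the 5 had 27, 2, 19, 50 and 2 reads in the order given, so none was abundant.

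The first base followed the same order. T, written U in the RNA and favoured by Argonaute proteins at this position, began 16 of the 65 silent sequences (24.6%), 42.1% of the names with 1 to 3 reads, 52.8% of all names with reads and 67.1% of those with 100 reads or more. Within hairpins, 5 of the 26 silent arms (19.2%) and 15 of their 25 partner arms (60%) began with T, miR-24-3p being the partner of both miR-24 arms. Outside the DLK1-DIO3 cluster 11 of the 46 silent names began with T. Length did not separate the sets, with a median of 22 bases in both, and the median GC content was 47.6% for silent names and 45.8% for names with reads. Names share families and hairpins and are not independent, so these shares were not tested.

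**Figure D5:**
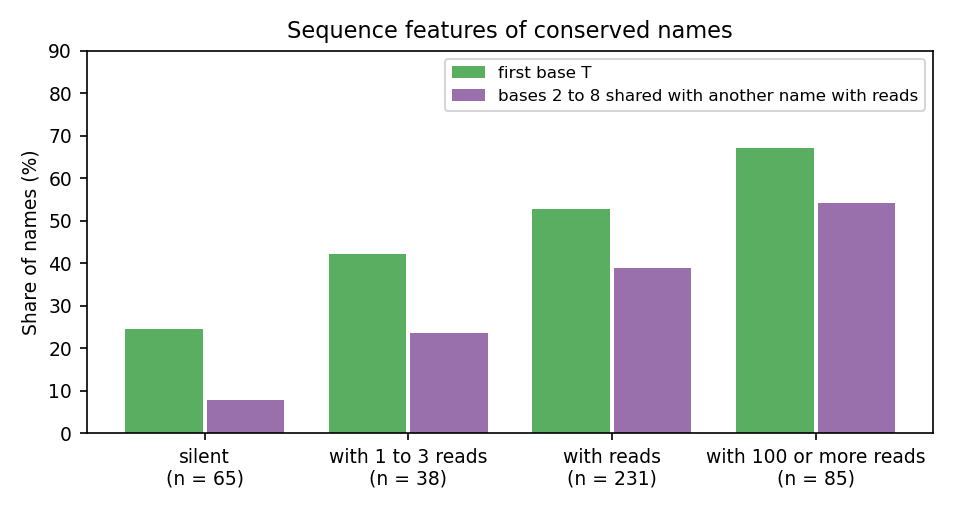
Share of conserved names (percent) whose first base is T (green) and whose bases 2 to 8 occur in another name with reads (purple), by read class summed over 6 libraries. The names with 1 to 3 reads and with 100 or more reads are also part of the names with reads. Both shares are lowest for the silent names, at 24.6% and 7.69%.

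Whether the groups differ cannot be asked of the silent names themselves, which are 0 in both, so their partner arms and the number of names at 0 per library were compared. The 26 partner arms with reads, miR-432-5p among them, summed to 514, 236 and 528 RPM in LO1 to LO3 and to 459, 340 and 342 RPM in SO1 to SO3. The mean was 426 ± 165 RPM in LO and 381 ± 67.9 RPM in SO, a difference of 45.6 RPM, and the groups overlap (exact two-sided permutation p = 0.8, n = 3 each, 0.8 after Benjamini-Hochberg adjustment over 3 tests). LO2 held the lowest and LO3 the highest value. Without LO3 the difference was -5.42 RPM, and without LO2 it was 141 RPM, so 1 library decides its size and sign.

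The number of names at 0 did not separate the groups. Conserved names at 0 numbered 119, 151 and 101 in LO1 to LO3 and 90, 105 and 102 in SO1 to SO3, a mean of 124 ± 25.3 against 99.0 ± 7.94. The groups overlap, with LO3 under SO2 and SO3. The difference of 24.7 names had an exact two-sided permutation p of 0.3 (n = 3 each, adjusted 0.45). With the listed-miRNA reads of every library set to the 7755 of LO2, and library totals not matched, the expected number per library was 144, 151 and 150 in LO and 152, 159 and 160 in SO. The difference was then -8.65 names, with every LO value under every SO value. The exact permutation p of 0.1 is the smallest that 3 against 3 can give (adjusted p = 0.3). All 65 silent names add equally to every count, so both differences come from names with reads somewhere.

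Silence in 1 group only was confined to names with few reads. Of the 296 conserved names, 88 were at 0 in all LO libraries and 72 in all SO libraries. The LO libraries held 2461485 reads in sum and the SO libraries 6022106, so these counts were not made at like depth. At 0 in all LO libraries but read in SO were 23 names, the highest of them miR-365-5p with 1, 4 and 4 reads in SO1 to SO3, a mean of 1.48 ± 0.838 RPM (SD, n = 3). The summed LO limit of 1.22 RPM lies under that mean but within 1 SD of it. A difference between the groups was not tested for this name, which was picked as the highest of the 23. At 0 in all SO libraries but read in LO were 7 names, none with more than 2 reads. One was miR-181d-5p, the partner of the silent miR-181d-3p, with 2 reads in LO3.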

How the data were processed

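Small RNA from 6 libraries of denuded pig oocytes (3 LO, 3 SO, grouped by sample title) was made with mirVana and the QIAseq miRNA Library Kit, per the labels' protocols. Per the submitters' processing notes, without roles, the tools were Bowtie2 2.2.2, cutadapt, bcl2fastq and edgeR, with genome build Sscrofa10.2. The value deposited by the authors is headed TPM, but was read as RPM: 100% of the 1135 values above 0 were whole multiples of 1 step per library, within 0.02 read, which gave whole reads. What the authors' total counts, and any use of molecular identifiers, are not given in the sources used here.

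A count of 0 was taken to allow 3 reads, an upper limit at 95% confidence. The members, the 28 cluster and tissue lists and the tests were chosen with earlier results of these data known. Every silent name is given once. Shown in more detail are the 6 arms with the highest partners, the 6 lowest-numbered DLK1-DIO3 names, seed relatives, near copies within 2 mismatches over 20 bases, and names with 1 read. miR-301 and the names of the shifted match were added after their values were seen. Of the 65 silent names 49 matched a RefSeq locus (Sscrofa11.1), and 45 had a position. That build is not that of the files, so no coordinates are given. LO and SO were compared by exact permutation of libraries with Benjamini-Hochberg adjustment (Python 3.11.15, scipy 1.17.1), and the functions were tested on simulated data.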

Additional observations from a re-analysis of the deposited data

How the results depend on the processing

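Of 52 alternatives, most kept a count near its main value or kept the sign of a group difference, whatever its size. All 7 for the limit of miR-146a-3p moved it. The 65 silent names became 65 to 73 with 1 library left out, 75 at 1 read or fewer and 99 at 2 reads or fewer. The count of 88 with LO libraries only was taken as near. The 19 DLK1-DIO3 names stayed 19 without any 1 library, and 5 remained when a RefSeq position within 250 kb of another list name was required, since the table places only 6 of them so. The limit of miR-146a-3p was 0.217% of its partner by the exact two-sided 95% Poisson bound, and 0.183% to 0.242% with 1 library left out. The LO minus SO difference of the partner arms ran from -5.42 to 141 RPM with 1 library left out, reversing without LO replicate 3. The difference in names at 0 ran from 11.0 to 36.0, and reversed to -8.65 at the lowest listed depth. The cause of these reversals was not tested.

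Labels give LO and SO the same replicate numbers. The deviations of same-numbered libraries correlated at -0.12, -0.15 and 0.06, and those of differently numbered libraries at -0.12 to 0.26. With 3 libraries per group these values cannot show whether the numbers pair samples. The main tests did not take them to do so. With the replicate block, an exact sign-flip test gave p = 0.75 for the 45.6 RPM of the partner arms and p = 0.5 for the 24.7 names at 0, and 0.25 is the smallest it can give. Depth limits every statement: in LO2 a 0 allows 6.50 RPM.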

Other observations

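Of the 30 names numbered above miR-3613, which were left out, 19 were also at 0 in all 6 libraries, 63.3% beside 22.0% of the conserved names. The highest of the 30 had 128 reads, and those with reads had a median of 3.

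Other names with identical sequences had unequal reads, as miR-490 and miR-490-3p did. miR-9-1 had 106 reads and miR-9-2 had 122. miR-218 had 17 and miR-218-5p had 43, with 2 and 0 reads in LO2. miR-196b had 1, in LO2, and miR-196b-5p had 2, in SO1 and SO3.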
